A study of Mus musculus with 6 samples.

Results

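The Isg15 conjugation system is a small enzymatic pathway of 5 named genes, Isg15, Usp18, Uba7, Ube2l6 and Herc6, followed here in mouse lymph node T cells. Members were found as the probe sets of the array table whose annotation lists a member's symbol and no other. A probe set is a group of short array probes read as 1 value. This gave 9 probe sets for 4 of the 5 genes, among 18193 genes that the annotation names in this way. Usp18 had 1 probe set, Uba7 had 3, Ube2l6 had 1 and Herc6 had 4. Isg15 had none, because the probe set that lists it also lists Gm9706, which RefSeq classes as a pseudogene.

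Total RNA of Ezh2 deficient lymph node T cells was hybridised to 3 single-colour arrays, and RNA of Ezh2 fl/fl lymph node T cells to another 3. In the usual notation, fl/fl stands for gene copies flanked by loxP sites, which a Cre recombinase can remove. Ezh2 is the methyltransferase of Polycomb repressive complex 2. The Cre line, the deleted part of the gene, any treatment, and the age, sex and number of the animals are not stated in the labels. Nothing says that the arrays hold separate animals, so p-values measure only the spread among the 6 samples, and that spread may be technical.

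Isg15 is a ubiquitin-like protein with tandem ubiquitin-like domains that is made in response to type I interferon and joined to other proteins, a step called ISGylation. The E1 enzyme Uba7 activates Isg15, the E2 enzyme Ube2l6 accepts it, and an E3 ligase, Herc6 in the mouse, places it on its targets. The protease Usp18 removes it, and separately binds the interferon receptor chain Ifnar2 and dampens its signalling. Transcription of all these genes is known to be raised by interferon, commonly through sites called interferon-stimulated response elements.

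The core of such an element is commonly written as GAAA, any 2 bases, and GAAA again. These letters were sought on both strands, overlaps allowed, in windows of 300 bases, 250 before to 50 after the start of a gene. The windows were taken from RefSeq on the GRCm38.p6 build and covered 4 of the 5 members, all but Usp18. The letters were present in 1131 of 32851 such windows (3.44%). Among the 4 members they were found in the Isg15 window alone, as 3 overlapping matches that begin 78, 72 and 66 bases before the start and together span 22 bases. The promoters of Isg15 (chr4:156200769-156201068, minus strand), Uba7 (chr9:107975317-107975616, plus strand) and Herc6 (chr6:57580742-57581041, plus strand) are shown 5′ to 3′ along each gene. They set the window with matches beside those of the measured enzymes Uba7 and Herc6, and the Ube2l6 window is not shown. Capitals mark the matches.
Isg15: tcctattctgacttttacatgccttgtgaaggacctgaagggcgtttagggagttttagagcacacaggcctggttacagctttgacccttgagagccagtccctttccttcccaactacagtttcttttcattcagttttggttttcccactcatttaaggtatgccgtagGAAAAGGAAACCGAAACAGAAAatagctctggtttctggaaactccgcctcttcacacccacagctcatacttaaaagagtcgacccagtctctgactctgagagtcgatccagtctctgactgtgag
Uba7: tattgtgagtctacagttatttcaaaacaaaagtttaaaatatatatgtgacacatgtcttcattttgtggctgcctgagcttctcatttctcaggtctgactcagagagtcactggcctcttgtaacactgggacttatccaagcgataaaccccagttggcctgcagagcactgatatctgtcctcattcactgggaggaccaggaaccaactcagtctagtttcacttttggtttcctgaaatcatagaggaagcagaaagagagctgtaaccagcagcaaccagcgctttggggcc
Herc6: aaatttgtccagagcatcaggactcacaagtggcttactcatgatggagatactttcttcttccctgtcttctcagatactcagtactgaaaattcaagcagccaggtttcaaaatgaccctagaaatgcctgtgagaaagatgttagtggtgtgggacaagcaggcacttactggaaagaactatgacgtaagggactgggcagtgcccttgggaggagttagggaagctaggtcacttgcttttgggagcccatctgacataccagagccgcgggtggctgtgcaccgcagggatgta
The Uba7, Herc6 and Ube2l6 windows had 0 matches, which says only that these letters are not in them. On the same build, Usp18 lies at chr6:121245906-121270917, Herc6 at chr6:57580992-57665136, Uba7 at chr9:107975567-107984056, Ube2l6 at chr2:84798828-84810003 and Isg15 at chr4:156199424-156200818, each annotated as protein coding.

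The values are intensities that were quantile normalised between arrays, so that all 6 share 1 distribution, and differences are on the scale log2(intensity + 43.3), as Ezh2 deficient minus Ezh2 fl/fl. On this scale a fold change is understated for dim probe sets. Median deposited intensities ran from 163.3 to 188.1, and of 11 T cell markers 4 were higher and 7 were lower in deficient T cells (median -0.033), with Cd3d averaging 16496 in deficient and 16876 in fl/fl T cells. Cd8b1, a chain of the CD8 co-receptor, had the smallest p of them, at -0.17 without overlap between groups (limma adjusted p = 0.581). The 11 T cell markers summed to 91452 to 92173 on deficient and 92470 to 94603 on fl/fl arrays. Without Cd3d, the brightest, the sums overlapped, at 75074 to 75774 and 75648 to 78138 in the same order of groups. The Ezh2 probe set averaged 282 ± 6.55 in deficient and 688 ± 111 in fl/fl T cells (SD, n = 3 each), with a log2 difference of -1.16, a limma adjusted p of 0.0705 and groups that did not overlap. Its 3 deficient arrays were alike, at 282, 289 and 276.

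All 9 probe sets had a higher mean log2 value in Ezh2 deficient T cells, where 49.3% of all tested probe sets did. The difference was widest for the deconjugating protease Usp18, intermediate for 2 of the 4 Herc6 probe sets, and small for the E1 enzyme Uba7. By limma with Benjamini-Hochberg adjustment over 27022 probe sets, 0 of the 8 member probe sets that passed the filter on low values were called at an adjusted p under 0.05, where 0.0037% of all tested probe sets (1 of 27022) were called. At an unadjusted p under 0.05, 4 of these 8 were higher, with a background of 3.84% (1038 of 27022), and 0 were lower, with a background of 3.38%. These 4 belong to 3 genes, and probe sets of 1 gene are not independent. The members were chosen with earlier results of these data known. This count of 4 shrank to 1 when Ezh2 deficient replicate 1 or Ezh2 fl/fl replicate 1 was left out and to 2 when Ezh2 deficient replicate 3 or Ezh2 fl/fl replicate 2 was, and it grew to 5 when Ezh2 deficient replicate 2 was left out. The share of all probe sets in those fits was not counted, so these counts have no background.

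**Figure D1:**
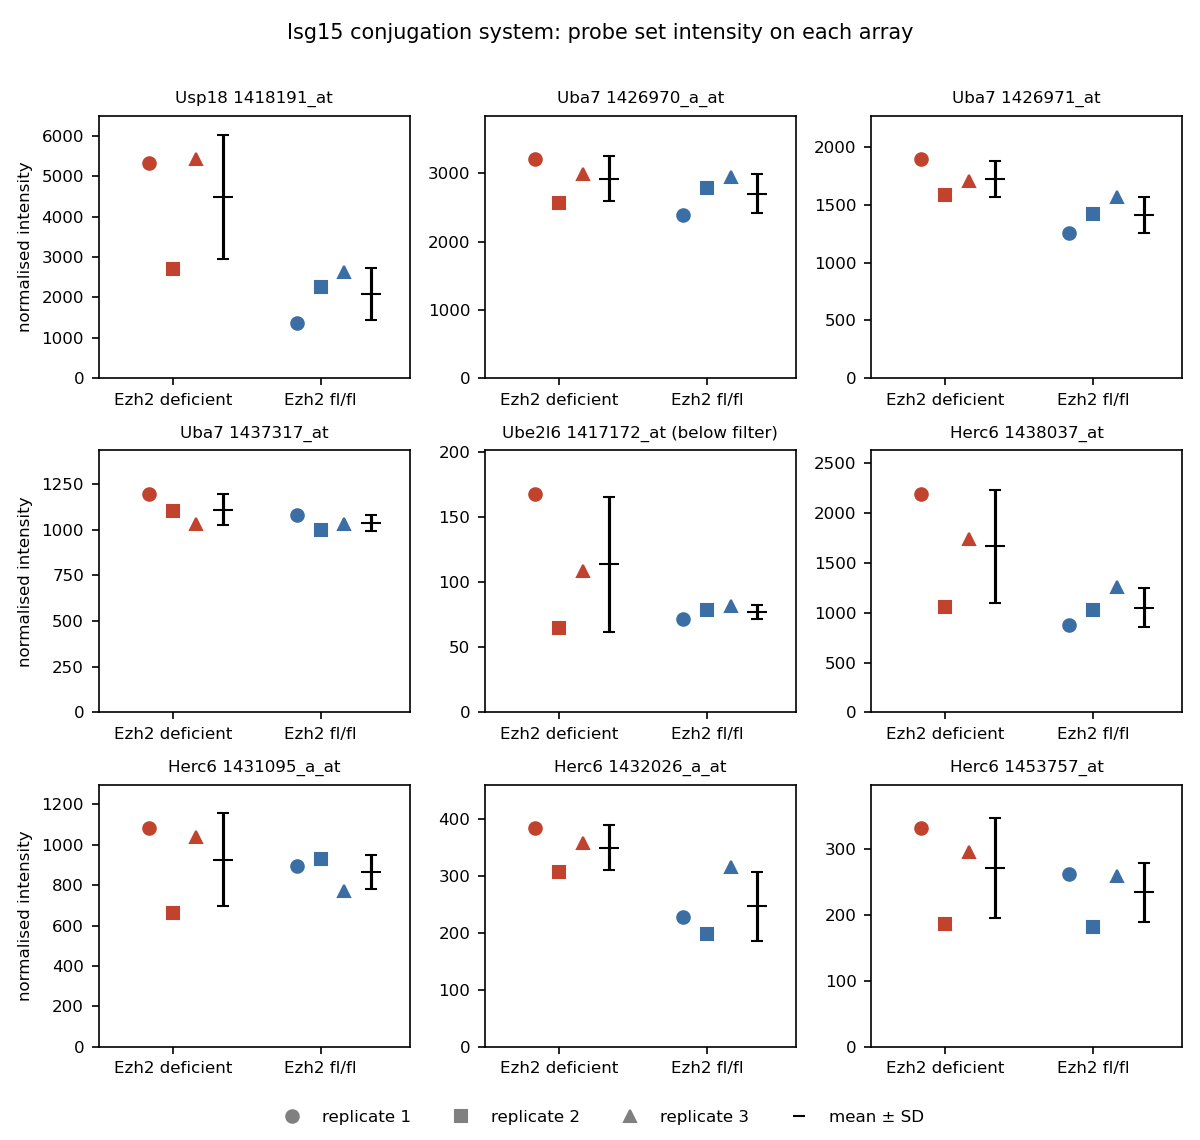
Normalised intensity (y axis, linear from 0) of the 9 member probe sets on each array, with Ezh2 deficient arrays (red) left of Ezh2 fl/fl arrays (blue), symbols for replicates, and black bars for the mean ± SD of 3 arrays. Usp18 reached 5333 and 5416 on 2 deficient arrays, and on most panels Ezh2 deficient replicate 2 lies near or within the fl/fl values.

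Usp18, the protease, had 5333, 2705 and 5416 in Ezh2 deficient replicates 1, 2 and 3, against 1358, 2246 and 2627 in Ezh2 fl/fl replicates 1, 2 and 3. Deficient replicates 1 and 3 stood well above all fl/fl arrays, while deficient replicate 2 was only just above the highest of them. The means were 4485 ± 1541 in deficient and 2077 ± 651 in fl/fl T cells (SD, n = 3 each). The log2 difference was 1.08 (SE 0.29, 95% interval 0.42 to 1.73), or 2.11-fold, with a limma p of 0.00462 and an adjusted p of 0.540. Of all tested probe sets, 0.133% had a larger positive difference. With each array left out in turn the log2 difference ran from 0.81, without Ezh2 fl/fl replicate 1, to 1.40, without Ezh2 deficient replicate 2, and its adjusted p stayed at 0.278 or above. In bulk RNA, more cells that hold a transcript and more of it per cell cannot be told apart.

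The E1 enzyme Uba7 was read by 3 probe sets, all of which passed the filter. Its brightest, 1426970_a_at, had 3203, 2566 and 2995 in deficient replicates 1, 2 and 3, against 2383, 2779 and 2940 in fl/fl replicates 1, 2 and 3. The groups overlapped, with deficient replicate 2 below 2 of the fl/fl arrays, and the log2 difference was 0.11 (95% interval -0.12 to 0.35, limma adjusted p = 0.842). On 1426971_at the values were 1894, 1582 and 1704 in deficient replicates 1, 2 and 3, against 1255, 1417 and 1568 in fl/fl replicates 1, 2 and 3.
Here the groups did not overlap, by a narrow margin between deficient replicate 2 and fl/fl replicate 3. The log2 difference was 0.28 (SE 0.10, 95% interval 0.049 to 0.52), with a limma p of 0.0229 and an adjusted p of 0.636. The remaining probe set, 1437317_at, averaged 1110 ± 83.4 in deficient and 1038 ± 42.7 in fl/fl T cells (SD, n = 3 each), with overlapping groups and a log2 difference of 0.091 (95% interval -0.11 to 0.29). The 3 intervals overlap one another, and the average over the 3 Uba7 probe sets gave a log2 difference of 0.16 (limma adjusted p = 0.629 with genes as units).

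The E2 enzyme Ube2l6 was dim. Its probe set had 168, 64.5 and 108 in deficient replicates 1, 2 and 3, against 71.4, 78.8 and 81.4 in fl/fl replicates 1, 2 and 3. Deficient replicates 1 and 3 lay above the fl/fl arrays and deficient replicate 2 below them, so the deficient group surrounded the fl/fl group. It missed the filter, which kept probe sets at or above the 40th percentile of mean log2 value. In the fit without the filter its log2 difference was 0.33 (SE 0.26, 95% interval -0.28 to 0.93, limma adjusted p = 0.863). Leaving out deficient replicate 1 gave 0.086, and leaving out deficient replicate 2 gave 0.57.

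Herc6, the ligase, had 4 probe sets that did not give 1 answer. The brightest by mean, 1438037_at, had 2192, 1059 and 1741 in deficient replicates 1, 2 and 3, against 873, 1027 and 1256 in fl/fl replicates 1, 2 and 3. Deficient replicates 1 and 3 were above every fl/fl array, and deficient replicate 2 lay within the fl/fl range. The log2 difference was 0.60 (SE 0.23, 95% interval 0.071 to 1.12), or 1.51-fold, with a limma p of 0.0301 and an adjusted p of 0.650. Leaving out deficient replicate 1 gave 0.37, and leaving out deficient replicate 2 gave 0.88.

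On the dimmer Herc6 probe set 1432026_a_at the values were 385, 307 and 359 in deficient replicates 1, 2 and 3, against 229, 198 and 316 in fl/fl replicates 1, 2 and 3. The groups overlapped through deficient replicate 2 and fl/fl replicate 3 alone. The log2 difference was 0.45 (SE 0.17, 95% interval 0.074 to 0.83, limma adjusted p = 0.636). In contrast, 1431095_a_at had 1082, 662 and 1037 in deficient replicates 1, 2 and 3, against 895, 931 and 771 in fl/fl replicates 1, 2 and 3. Deficient replicate 2 was the lowest of the 6 arrays on it, and the log2 difference of 0.068 (95% interval -0.32 to 0.46) turned to -0.055, -0.025 and -0.0097 when Ezh2 deficient replicate 1, Ezh2 deficient replicate 3 and Ezh2 fl/fl replicate 3 were left out in turn. The last, 1453757_at, averaged 271 ± 75.6 in deficient and 234 ± 45.0 in fl/fl T cells (SD, n = 3 each), with a log2 difference of 0.16 (95% interval -0.31 to 0.63). Names ending in _a_at mark probe sets designed to match several transcripts of 1 gene. Where on Herc6 each probe set lies is not given in the sources used here, and the 4 intervals overlap. The average over the 4 was a log2 difference of 0.32 (limma adjusted p = 0.642 with genes as units).

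**Figure D2:**
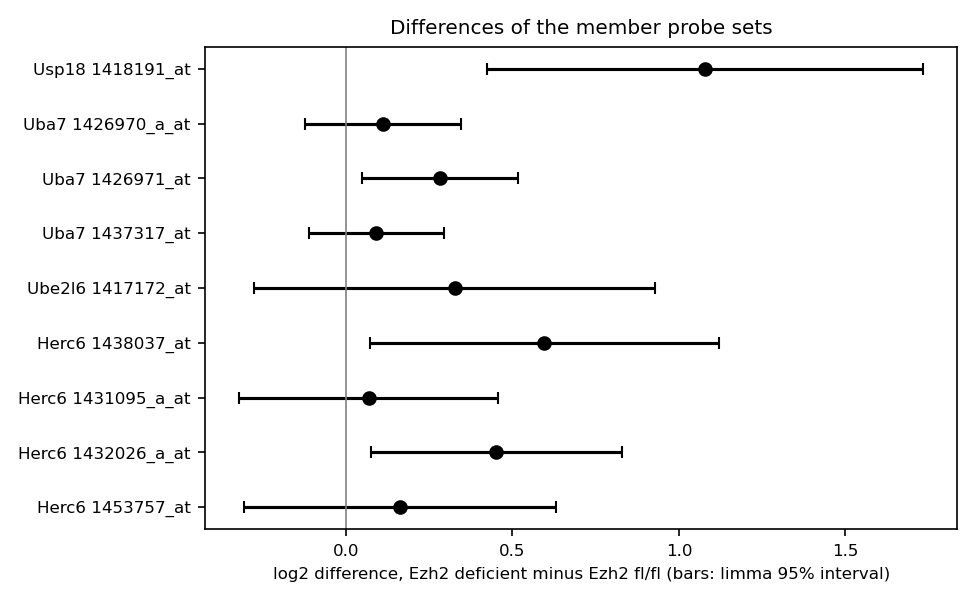
Log2 difference (x axis), Ezh2 deficient minus Ezh2 fl/fl, of the 9 member probe sets, with limma 95% intervals; Ube2l6 is from the fit without the filter. The intervals of Usp18, Uba7 1426971_at, Herc6 1438037_at and Herc6 1432026_a_at lie above 0 before any adjustment, and the other 5 span it.

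For Isg15 itself no value is given, since its mRNA cannot be separated from Gm9706 by the annotation used here. The probe set annotated to both, 1431591_s_at, had 2881, 1495 and 2556 in deficient replicates 1, 2 and 3, against 1247, 1149 and 1737 in fl/fl replicates 1, 2 and 3. Deficient replicates 1 and 3 were the highest, and deficient replicate 2 lay within the fl/fl range. Its log2 difference was 0.70 (SE 0.23, 95% interval 0.18 to 1.22, limma adjusted p = 0.619). The probe set 1453939_x_at, annotated to Gm9706 alone, was dimmer at 374 ± 100 in deficient and 210 ± 66.6 in fl/fl T cells (SD, n = 3 each), with a log2 difference of 0.72 (limma adjusted p = 0.619). A name ending in _s_at or _x_at marks probes that can match several transcripts, so both may read either gene.

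The deficient arrays were uneven across the whole system. Relative to the fl/fl mean, the median of the 9 probe sets was 0.45, 0.024 and 0.30 on the log2 scale in deficient replicates 1, 2 and 3, against -0.077, 0.0093 and 0.14 in fl/fl replicates 1, 2 and 3. Deficient replicate 2 thus lay within the range of the fl/fl arrays. Deficient replicate 1 was above the highest fl/fl value on 9 of 9 probe sets, deficient replicate 3 on 8 and deficient replicate 2 on 3. Deficient replicate 2 lay within the fl/fl range on 4 and below it on 2, and was the lowest deficient array on 8. Among controls, fl/fl replicate 3 was the highest on 6 of 9 probe sets and fl/fl replicate 1 the lowest on 5. For these counts the share of all tested probe sets was not counted, and the 9 probe sets read only 4 genes. The same median over all tested probe sets ran from -0.0014 to 0.0037. Groups that did not overlap were found for 2 of the 8 tested probe sets (Usp18 and Uba7 1426971_at), both higher in deficient T cells, with a background of 6.55%.

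**Figure D3:**
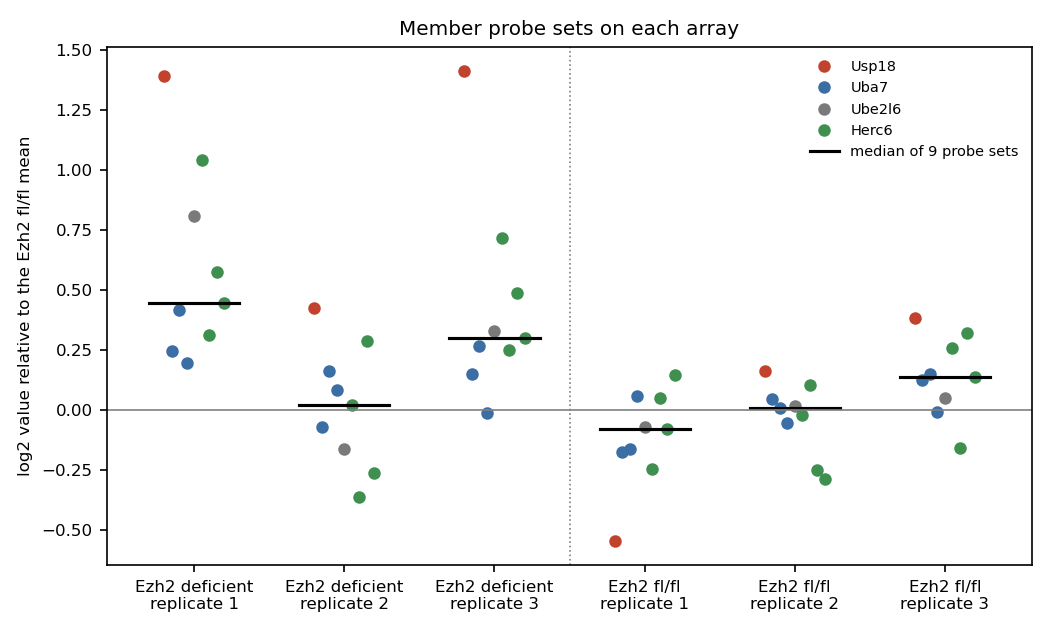
Log2 value relative to the Ezh2 fl/fl mean (y axis) of the 9 member probe sets on each array, Ezh2 deficient left of Ezh2 fl/fl, coloured by gene, with a black bar at the median of the 9. The medians are 0.45, 0.024 and 0.30 on deficient replicates 1, 2 and 3, and -0.077, 0.0093 and 0.14 on fl/fl replicates 1, 2 and 3.

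Across the 6 arrays all 36 pairwise Pearson correlations of log2 values between the 9 probe sets were positive, from 0.15 to 0.95 with a median of 0.66. These pairs share their arrays and the group difference, and some share a gene. Usp18 was closest to Uba7 1426971_at (r = 0.95) and Herc6 1438037_at (r = 0.94), while Uba7 1437317_at and Herc6 1431095_a_at had the lowest value, 0.15. The 8 genes outside the system whose log2 profile was most like the mean standardised profile of Usp18, Uba7, Ube2l6 and Herc6 over the 6 arrays were Sgo2a, Tra2a, Pml, Traf7, Med13l, Ppp2r2a, Zbtb2 and Tmem217, with r from 0.98 to 0.99. These r are the highest among all tested probe sets with 1 symbol, over only 6 arrays. Their groups all overlapped, which the choice nearly fixes. In the profile itself deficient replicate 2, at -0.60, lay between fl/fl replicates 1 and 2, at -1.17 and -0.40. Pml, which encodes the core protein of a nuclear body, averaged 398 ± 99.5 in deficient and 278 ± 34.5 in fl/fl T cells (SD, n = 3 each).

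**Figure D4:**
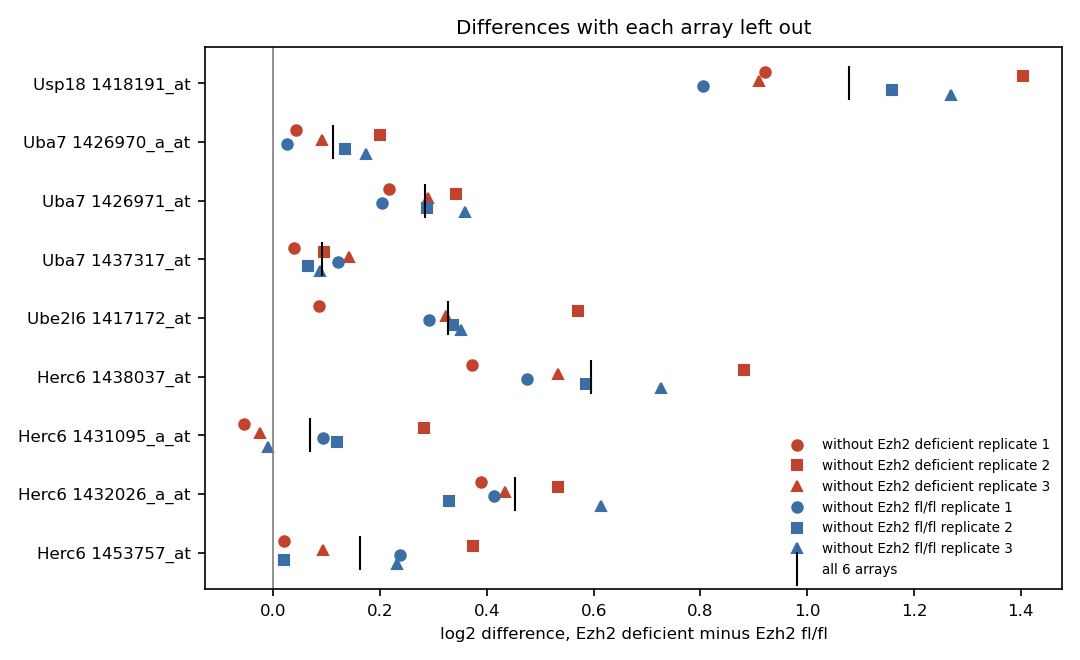
Log2 difference (x axis), Ezh2 deficient minus Ezh2 fl/fl, of each member probe set with 1 array left out (red symbols, a deficient array; blue symbols, an fl/fl array) and with all 6 arrays (black line). Leaving out Ezh2 deficient replicate 2 gives the largest value for Usp18 (1.40) and for Herc6 1438037_at (0.88), and Herc6 1431095_a_at crosses 0.

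The other genes of ISGylation and of ubiquitin-like conjugation had list medians from -0.084 to 0.064. Over all 12275 tested genes, each by its brightest probe set, the median was -0.010 and 46.9% had a positive difference. By limma 0 of the 157 genes tested in all pathway lists were called over all probe sets, while at an unadjusted p under 0.05 there were 40 higher and 2 lower, where 3.92% of all tested genes were higher and 4.29% lower. Of the 40, 29 were among the 45 other interferon-stimulated genes, and the remaining 112 genes held 11 higher and both lower ones (9.82% and 1.79%). The 2 lower ones were Usp5 and Tyk2. All these lists were chosen with earlier results of these data known. Without Ezh2 deficient replicate 2, 3 were called, all higher: Oas1a, Cmpk2 and Iigp1, the last 2 named after their values were seen. How many of all probe sets were called in that fit was not counted, so these 3 have no background share. Among 7 further ISG15 ligases and proteases reported to cut it, 1 was higher and 6 were lower (median -0.084). The higher one was Trim25, a RING ligase that can also attach Isg15, at 3690 ± 474 in deficient and 2741 ± 511 in fl/fl T cells (SD, n = 3 each). Its groups did not overlap and its log2 difference was 0.43 (SE 0.14, limma adjusted p = 0.619). Arih1, another ligase reported for Isg15, was at -0.022. The protease Usp5 was at -0.28, lower without overlap between groups (limma adjusted p = 0.636).

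Relatives of the member enzymes were tested gene by gene and counted by family, and no family was tested as a set. Of 6 other ubiquitin-like E1 enzymes, 3 were higher and 3 were lower (median 0.023). Uba3, which activates Nedd8, was at 0.21 (limma adjusted p = 0.665) and the Sumo E1 subunit Sae1 at 0.19. Of 27 other E2 enzymes, 17 were higher and 10 were lower (median 0.064), and those with the smallest p were Ube2e3 at 0.38 and Ube2q2 at 0.25. Of 40 other ubiquitin-specific proteases, 21 were higher and 19 were lower (median 0.0063). Usp47 was at 0.24. The other HERC ligases Herc1 to Herc4 had a median of 0.041, with Herc3 at -0.043, Herc1 at 0.072 and Herc4 at 0.11. Of 7 tested ubiquitin-like modifiers, 2 were higher and 5 were lower (median -0.061). Fau was at -0.082 and Atg12 at 0.21, each without overlap between groups. Each of these families had 0 called genes. Uba1 and Ube2l3 had no probe set of their own symbol alone.

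The interferon pathway around the system was then followed from ligand to response. Interferon ligand transcripts were dim. Of 9 on the array, 7 missed the filter, Ifnb1 averaged 164 ± 27.0 in deficient and 174 ± 9.24 in fl/fl T cells (SD, n = 3 each), and Ifng, the type II ligand, averaged 300.2 ± 21.7 and 222 ± 44.8 in the same groups. The Ifng log2 difference was 0.38 (limma adjusted p = 0.657), with groups that did not overlap. Receptors and signal transducers had a median of 0.064 over 9 genes. The receptor chains Ifnar1 and Ifnar2, of which Ifnar2 is the partner of Usp18, were at 0.026 and -0.053, and the kinases Jak1 and Tyk2 at 0.064 and -0.27. Tyk2 was lower without overlap between groups (limma adjusted p = 0.636).

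Of the transcription factors that act on response elements, Irf9 averaged 2730 ± 253 in deficient and 2240 ± 112 in fl/fl T cells (SD, n = 3 each). Its log2 difference was 0.28 (limma adjusted p = 0.619), without overlap. Its partner Stat2 was at 0.30 with overlapping groups (limma adjusted p = 0.716). Of 4 factors that induce interferon genes, 3 were higher (median 0.13), with Irf1 at 0.13, Irf7 at 0.16, Irf8 at 0.12 and Irf3 at -0.00038. Of 9 negative regulators of interferon signalling other than Usp18, 6 were higher, with a median of 0.052, and those with the smallest p were Pias2 at 0.28 and Ptpn11 at 0.26. Itgal, a chain of the integrin reported to bind extracellular Isg15, was at 0.11.

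Other interferon-stimulated genes were mostly higher too. Of 45 tested, 43 were higher and 2 were lower (median 0.41), and 29 were higher at an unadjusted p under 0.05, where 3.92% of all tested genes were. The list was chosen with earlier results of these data known, so this count is a description only. Without Ezh2 deficient replicate 1 the 29 became 19, and the share of all genes in that fit was not counted. Oas1a, an antiviral oligoadenylate synthetase, was at 1.22 (limma adjusted p = 0.161), and Ddx60, a helicase of antiviral sensing, at 0.73 (limma adjusted p = 0.161). These genes were likewise highest on deficient replicates 1 and 3. Their median relative to the fl/fl mean was 0.57, 0.11 and 0.52 in deficient replicates 1, 2 and 3, against -0.11, -0.0097 and 0.097 in fl/fl replicates 1, 2 and 3. Of 7 reported protein targets of Isg15, 5 were higher, led by the interferon-induced Mx1 at 1.40 and Eif2ak2 at 0.60 (median 0.064).

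**Figure D5:**
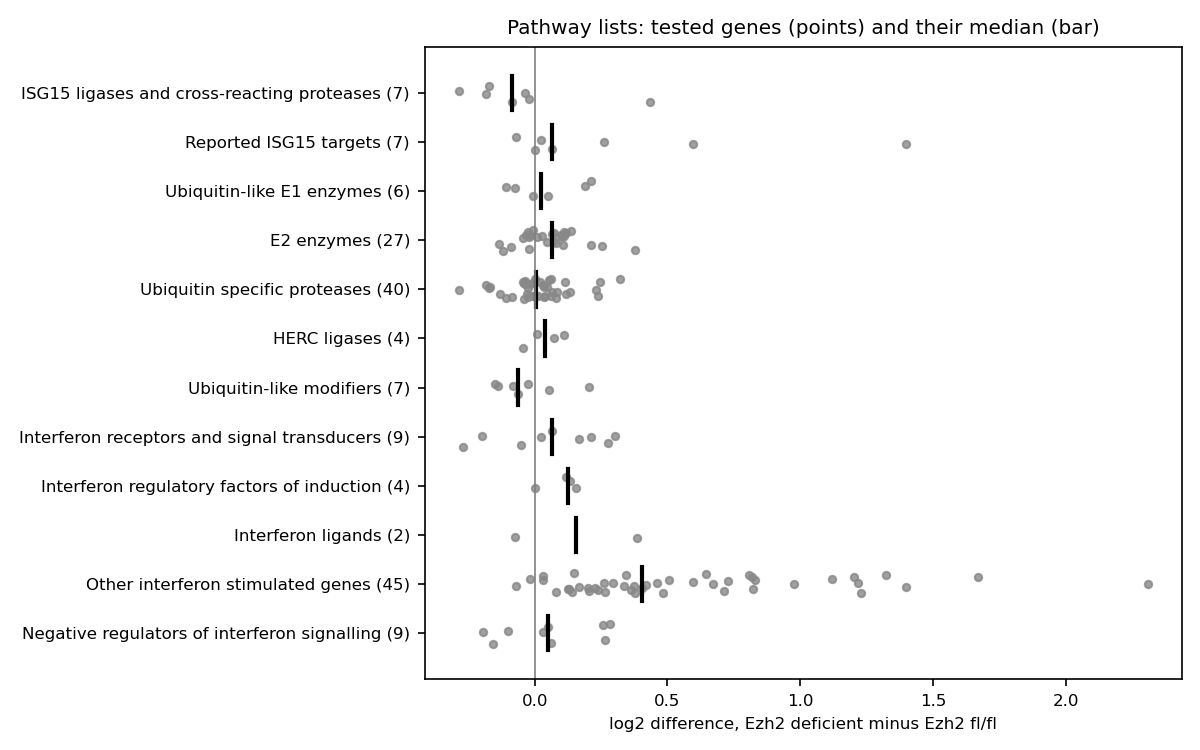
Log2 difference (x axis), Ezh2 deficient minus Ezh2 fl/fl, of the tested genes (points) of each pathway list, with a bar at the list's median and the number tested in brackets. The 45 other interferon-stimulated genes have a median of 0.41, and the enzyme families related to the members have medians from -0.084 to 0.064.

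Markers of other cells were read beside these values. Of 7 plasmacytoid dendritic cell markers, 2 were higher in deficient T cells, their summed intensity ran from 4321 to 5688 on deficient and from 4160 to 6399 on fl/fl arrays, and the defining Siglech averaged 120 ± 24.0 and 167 ± 85.1 in the same order of groups. Without Ccr9, the brightest of these markers, the other 6 summed to 2318 to 2536 on deficient and 2335 to 2636 on fl/fl arrays. Of 5 tested conventional dendritic cell markers, 4 were higher, and the sum over 8 ran from 1689 to 2319 on deficient and from 1158 to 1662 on fl/fl arrays. The bundling protein gene Fscn1 made this gap, with 1349, 764 and 865 in deficient replicates 1, 2 and 3, against 164, 839 and 435 in fl/fl replicates 1, 2 and 3. Without it the sum over the other 7 ran from 842 to 969 on deficient and from 822 to 994 on fl/fl arrays, with the highest value on fl/fl replicate 1. The chemokine gene Ccl22 was at 0.51, without overlap between groups (limma adjusted p = 0.619), while Zbtb46 was at -0.21 and, below the filter, Flt3 was at -0.47 and Cd209a at -0.39. Of 3 tested natural killer cell markers, 3 were higher, and the sum over 5 ran from 1551 to 1918 on deficient and from 1177 to 1571 on fl/fl arrays. Without Eomes, the brightest of them, the sum over the other 4 was 614, 605 and 617 in deficient replicates 1, 2 and 3, against 419, 474 and 521 in fl/fl replicates 1, 2 and 3, so that the groups did not overlap. The granzyme gene Gzma, which T cells can also express, was at 0.63 without overlap (limma adjusted p = 0.584), and below the filter the defining marker Ncr1 was at -0.21. Of 6 tested B cell markers, 3 were higher, with sums over 9 from 1676 to 1730 on deficient and from 1611 to 1780 on fl/fl arrays. The part of these cells in the member differences was not tested.

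The chromosomal neighbours of the members were checked as well. Of the 20 nearest annotated genes with a probe set, the nearest pair on each side of each of the 5 members, 13 passed the filter and 0 were called by limma. The log2 differences of these 13 ran from -0.20 to 0.34. At an unadjusted p under 0.05 there was 1 of the 13, Timm10 beside Ube2l6, where 3.92% of all tested genes were higher and 4.29% lower. Timm10 encodes a mitochondrial import chaperone and was lower at -0.20, without overlap between groups (limma adjusted p = 0.682). On either side of Uba7, Traip and Inka1 were at 0.31 and 0.24, without overlap between groups (limma adjusted p = 0.739 for Traip and 0.734 for Inka1). Of all tested probe sets, 6.55% were higher without overlap. Beside Usp18, Tuba8 was at -0.046 and Pex26 at -0.022, and beside Herc6, Ppm1k was at 0.13 and Pyurf at -0.13. The other 7 were below the filter and ran from -0.24 to 0.57 in the fit without it, with 1 at an unadjusted p under 0.05, Camkv beside Uba7 at 0.57 (limma adjusted p = 0.761). Vmn1r15 beside Herc6 was at 0.45 (limma adjusted p = 0.783).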

How the data were processed

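Gene expression in 6 arrays (3 Ezh2 deficient, 3 Ezh2 fl/fl), grouped by their description labels, was analysed from the deposited table of 45101 probe sets. Per the deposited table, the values are linear intensities, and the mean of each array without the 2% lowest and highest values is 500.002. The software that made them is not given in the sources used here. No detection calls were used, and the number of arrays limits the precision.

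Intensities were quantile normalised and turned into log2(intensity + 43.3), the 20th percentile of positive values. The 64 control probe sets and probe sets below the 40th percentile of mean log2 value were left out, which left 27022. Ezh2 deficient minus Ezh2 fl/fl was tested with limma 3.58.1 in R 4.3.3 (lmFit, then eBayes with trend, two-sided, Benjamini-Hochberg over all tested probe sets), with no covariate. The limma step was tested on simulated data. Exact permutation of 3 against 3 arrays cannot go below 0.10 and was not used.

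Gene names came from the platform annotation, where 34945 probe sets had 1 symbol, 932 several and 9160 none. Gene identifiers of the 4 measured members matched RefSeq (GRCm38.p6). The members and gene lists were chosen with earlier results of these data known. Named genes were all members, a chosen group of pathway genes, and of each pathway list the called genes or else the 2 with the smallest p. Cell markers and neighbours named singly were chosen after their values were seen. Likeness was ranked by Pearson correlation. Alternatives changed the scaling, pseudocount, filter, eBayes settings (statmod 1.5.0), array weights, unit, threshold and arrays. Of the lists, those of monocytes and macrophages, neutrophils, erythroid cells, stroma and sex-linked transcripts are given with the closing values.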

Additional observations from a re-analysis of the deposited data

How the results depend on the processing

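By limma the count of 0 member probe sets called held under every alternative that kept the adjusted p threshold of 0.05, and at 0.10, and it was 4 at an unadjusted p under 0.05. The count of 4 at an unadjusted p was 3 by eBayes without trend and by robust eBayes, and ran from 1 to 5 with each array left out. The median log2 difference of the 9 probe sets, 0.28 with all arrays, ran from 0.086 (without Ezh2 deficient replicate 1) to 0.37 (without Ezh2 deficient replicate 2). Of 141 values of single probe sets under the alternatives, 138 kept their direction and side of the threshold and 3 turned, all on Herc6 1431095_a_at, which ran from -0.055 to 0.28 with an array left out. The pathway lists had 0 called genes, from 0 to 3 with an array left out, and 42 at an unadjusted p under 0.05. The 29 other interferon-stimulated genes ran from 19 to 36 with an array left out and from 23 to 34 otherwise. For the counts at an unadjusted p in these other fits, the share of all probe sets was not counted. No paired analysis was possible because the labels give no replicate number, animal or batch that the groups share. With 3 arrays a group, no member passed over all probe sets, whether its difference was small, as for Uba7, or wide. Usp18 at 1.08 (limma adjusted p = 0.540) and Ezh2 itself at -1.16 (limma adjusted p = 0.0705) did not pass either. Ube2l6 lay close to the dimmest signals.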

Other observations

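Of the remaining marker lists, 2 of 6 tested monocyte and macrophage markers were higher in Ezh2 deficient T cells, with sums from 1216 to 1363 on deficient and from 1342 to 1465 on fl/fl arrays. The receptor gene Csf1r was at -0.42 without overlap between groups (limma adjusted p = 0.632). Neutrophil markers summed to 586 to 739 on deficient and 547 to 703 on fl/fl arrays, erythroid markers to 179 to 214 and 224 to 299.7, and markers of stroma and endothelium to 1652 to 1701 and 1568 to 2030, in the same order of groups. The sex-linked transcripts Eif2s3y, Kdm5d and Uty averaged 2810, 919 and 613 in deficient and 2756, 981 and 606 in fl/fl T cells. Xist was at 242 ± 23.9 in deficient and 351 ± 5.55 in fl/fl T cells (SD, n = 3 each), with a log2 difference of -0.47 (limma adjusted p = 0.520).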
